A study of Mus musculus with 2 samples.

Results

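The genes described here are 5 that mark myeloid cells, the white blood cells of innate immunity: S100a8, S100a9 and Stfa1, which are characteristic of neutrophils, and Lyz2 and Mrc1, which are characteristic of macrophages. They were chosen by symbol, with their values in this comparison known, from the 250 genes of the authors' deposited table, which lists only genes the authors called changed. All 5 have a row there. Because the choice used this contrast, the values that follow are a description and no test was made on them.

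The study sequenced total RNA of whole pancreata from mouse embryos of stage e12.5, and each genotype is represented by 1 library. For the control this was a pool of 6 pancreata whose genotype is labelled control, with no alleles given. The mutant library was a pool of 12 from Pdxcre;Gata4fl/fl;Gata6fl/fl embryos, whose genotype in the series title ends with Tom. Pdxcre denotes Cre recombinase under the promoter of Pdx1, which is active in the epithelium of the bud, so the floxed Gata4 and Gata6 genes, which encode zinc finger transcription factors, are targeted in epithelium. Neutrophils and macrophages come from blood-forming tissue instead. The comparison asks how expression in the early pancreas differs when both factors are deleted there.

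Neutrophils store S100a8 and S100a9 protein in their cytoplasm at very high concentration as a calcium-binding pair, calprotectin, which withholds metal ions from microbes. Macrophages populate embryonic organs early, first from the yolk sac and then from the fetal liver, and clear dying cells. Lysozyme, the product of Lyz2, cuts bacterial cell walls and is made by macrophages and neutrophils alike. Mrc1, or CD206, is an endocytic receptor for mannose-bearing glycoproteins on tissue-resident macrophages and on some endothelium.

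All 5 genes had the lower value in the mutant library. S100a8 was 8.41-fold lower, S100a9 6.06-fold and Stfa1 11.9-fold lower by the plain ratio of FPKM, which is fragments per kilobase of transcript and per 1000000 mapped fragments. Lyz2 was 3.82-fold and Mrc1 3.43-fold lower. Added together, the 3 neutrophil genes summed to 157 FPKM in the control against 20.5 in the mutant, and the 2 macrophage genes at 41.7 and 11.3. With 1 library per group no value has an error and no difference has a replicate check. In RNA from whole organs, fewer cells of a type and less RNA per cell cannot be told apart, and the unequal size of the pools cannot be told apart from genotype.

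A few facts of the whole table bear on these values. FPKM ranged from 0.00972 to 612, and the labels give over 20000000 mapped reads without a depth per library. Neither Gata4 nor Gata6 has a row, so the genotypes could not be checked against the targeted genes. Pdx1 and Ptf1a, which define the pancreatic epithelium, have none either, while the pancreatic enzyme gene Ctrb1 does, with 23.2 FPKM in the control and 3.14 FPKM for the mutant. From the deposited p and q, the authors tested about 14984 genes and called 1.67% of them.

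The promoters of the 5 genes, which lie on 4 chromosomes, are shown as a description. Whether the promoters bear on the lower values in the mutant was not tested. Each line gives the 250 bases before the transcription start in RefSeq on build GRCm38.p6, and all 5 genes were matched by symbol. S100a8 spans chr3:90668821-90669070 on the plus strand, S100a9 chr3:90695722-90695971 on the minus strand, Stfa1 chr16:36276898-36277147 on the plus strand, Lyz2 chr10:117282273-117282522 on the minus strand and Mrc1 chr2:14229164-14229413 on the plus strand. Capitals mark matches, on either strand, to short motifs of factors used in myeloid gene control or of the GATA family.
S100a8: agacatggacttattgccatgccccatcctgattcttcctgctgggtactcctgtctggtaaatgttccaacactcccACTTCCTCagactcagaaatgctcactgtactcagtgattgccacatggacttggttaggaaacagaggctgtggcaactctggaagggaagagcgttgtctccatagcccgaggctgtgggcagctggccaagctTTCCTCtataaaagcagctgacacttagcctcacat
S100a9: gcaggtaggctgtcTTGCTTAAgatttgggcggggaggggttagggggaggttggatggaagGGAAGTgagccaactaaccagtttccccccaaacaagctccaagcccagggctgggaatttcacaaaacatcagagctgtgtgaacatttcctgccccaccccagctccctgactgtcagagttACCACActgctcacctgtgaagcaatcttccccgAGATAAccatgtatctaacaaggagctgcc
Stfa1: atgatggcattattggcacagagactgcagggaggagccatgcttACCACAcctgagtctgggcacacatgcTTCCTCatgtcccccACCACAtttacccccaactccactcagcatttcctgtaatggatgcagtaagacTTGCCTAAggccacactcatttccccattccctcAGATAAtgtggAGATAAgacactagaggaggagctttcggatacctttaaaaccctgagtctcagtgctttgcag
Lyz2: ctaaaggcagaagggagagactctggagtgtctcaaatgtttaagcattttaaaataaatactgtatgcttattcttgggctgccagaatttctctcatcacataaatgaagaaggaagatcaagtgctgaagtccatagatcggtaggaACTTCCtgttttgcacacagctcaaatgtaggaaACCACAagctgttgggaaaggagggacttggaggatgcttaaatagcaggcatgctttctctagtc
Mrc1: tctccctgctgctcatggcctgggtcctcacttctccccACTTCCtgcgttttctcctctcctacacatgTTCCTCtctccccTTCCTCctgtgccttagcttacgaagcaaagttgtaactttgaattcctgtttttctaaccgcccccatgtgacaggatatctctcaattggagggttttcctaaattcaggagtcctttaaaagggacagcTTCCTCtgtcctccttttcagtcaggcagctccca

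The motif letters, chosen with these promoters in view, were GGAAGT (the core bound by ETS factors such as PU.1), GAGGAA (a PU.1 core), ACCACA (RUNX), TTGCNNAA (C/EBP) and the GATA factor motif AGATAA. The ETS core was present in 4 of the 5 promoters, S100a8, S100a9, Lyz2 and Mrc1, and in 19.7% of the 32851 promoters of the same table. In S100a8 it overlaps the PU.1 core, and the PU.1 core was also found in Stfa1 and Mrc1, against 23.3% of all promoters. The RUNX motif was in S100a9, Stfa1 and Lyz2, against 14.05% of all. Both the C/EBP motif (9.56% of all) and the GATA motif (9.99%) were in S100a9 and Stfa1. TATAAA, not in capitals, was found in S100a8 alone of the 5, against 12.4% of all. None of the motifs searched was in all 5 promoters. A match describes these letters and does not show that a factor binds. Because the letters were chosen with these promoters in view, nothing is read from the shares.

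S100a8 encodes the smaller subunit of calprotectin and lies on chromosome 3 from 90472993 to 90473956 on build mm9, the build of all gene positions here. Its level was 65.1 FPKM in the control library against 7.74 in the mutant library. The control value was the 17th highest of the 250. On the log2(FPKM + 1) scale, where adding 1 understates the change of low genes, the ratio of mutant to control was −2.92.

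S100a9, the larger calprotectin subunit, lies on the opposite strand from 90496555 to 90499613, 22.6 kb beyond S100a8. The control library had 61.4 FPKM and the mutant 10.1, with a log2 ratio of −2.49. The 2 subunit genes were thus at nearly the same level in the control, with 1.06 times as much S100a8 as S100a9 by FPKM. In the mutant S100a9 was the higher of the pair and the same proportion was 0.764. No replicate tells whether this shift exceeds the spread between pools.

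Stfa1 encodes a stefin, an intracellular inhibitor of cysteine proteases of the cathepsin type, and lies on chromosome 16 from 36277234 to 36285457. Its FPKM was 30.9 in the control library and 2.61 in the mutant library. The log2 ratio of −3.15 was the lowest of the 5 genes and ranked 9th of the 250 from the bottom. Its control level was close to that of Lyz2, at 1.10 times, and in the mutant it was 0.355 times that of Lyz2.

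Lyz2, the lysozyme gene of macrophages and neutrophils, is on chromosome 10 from 116714597 to 116719328. Its level was 28.1 FPKM for the control and 7.35 for the mutant, a log2 ratio of −1.80. The deposited table carries the note "hepatocyte maturation" beside Lyz2, and it has no such note beside the other 4 genes.

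Mrc1, on chromosome 2 from 14151041 to 14253650, was measured at 13.7 FPKM for the control and 3.98 for the mutant. Its log2 ratio of −1.56 was the smallest change of the 5. The locus also holds the microRNA gene Mir511, and no other annotated gene overlaps any of the 5 loci. Lyz2 and Mrc1 kept a similar proportion in both libraries, 2.05 for the control and 1.84 for the mutant.

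**Figure D1:**
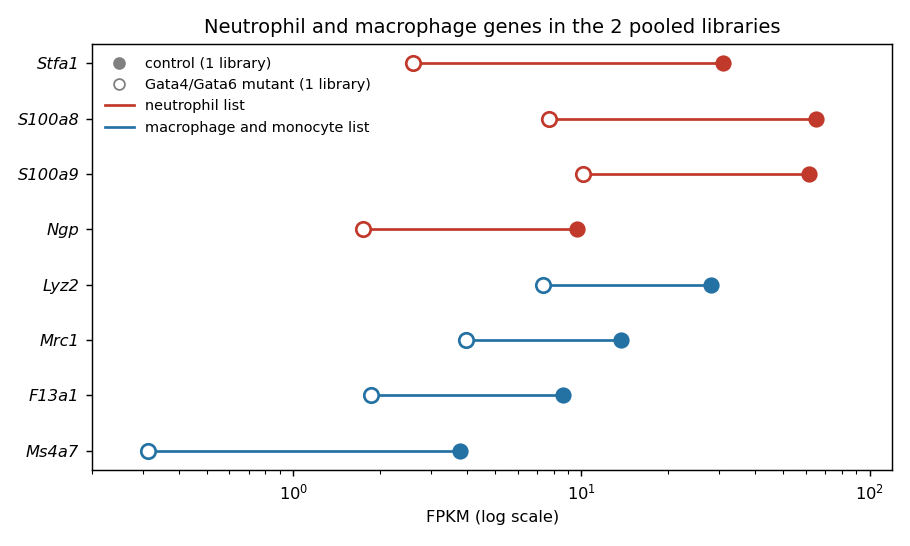
FPKM on a log axis in the control library (filled circles) and the Gata4/Gata6 mutant library (open circles), 1 library each, for the 5 genes and for Ngp, F13a1 and Ms4a7 of the same cell type lists; lines join the 2 values of a gene. Every filled circle lies to the right of its open circle, from 65.1 against 7.74 FPKM for S100a8 to 3.79 against 0.314 for Ms4a7.

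By a rule of size, a gene was called lower when its log2 ratio was −1 or less and one library or both reached 1 FPKM. All 5 genes met it, beside 113 of the 250 genes of the table, or 45.2%. The median log2 ratio was −2.49 over the 5 genes and 0.87 over the table, and it was −1.70 over the 117 table genes with the lower value in the mutant. Since the genes were chosen from this contrast, nothing is read from these counts. By the authors' fold change, from the lowest up, Stfa1 ranked 21st, S100a8 30th, S100a9 50th, Lyz2 82nd and Mrc1 90th.

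On the log2(FPKM + 1) scale the chosen neutrophil genes, from −3.15 to −2.49, did not overlap the chosen macrophage genes, from −1.80 to −1.56. Of the same lists, Ngp was at −1.96, Ms4a7 at −1.87 and F13a1 at −1.75. By the authors' log2 fold change, Ms4a7 of the macrophage and monocyte list, at −3.60, was lower than Stfa1, at −3.57. No difference between cell types is read from the gap, since the genes were chosen from this contrast without replicates. The summed level of S100a8, S100a9 and Stfa1 was 3.77 times that of Lyz2 and Mrc1 in the control and 1.81 times in the mutant. Lyz2 is also made by neutrophils, so the 2 sets are not exclusive to their cell types.

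**Figure D2:**
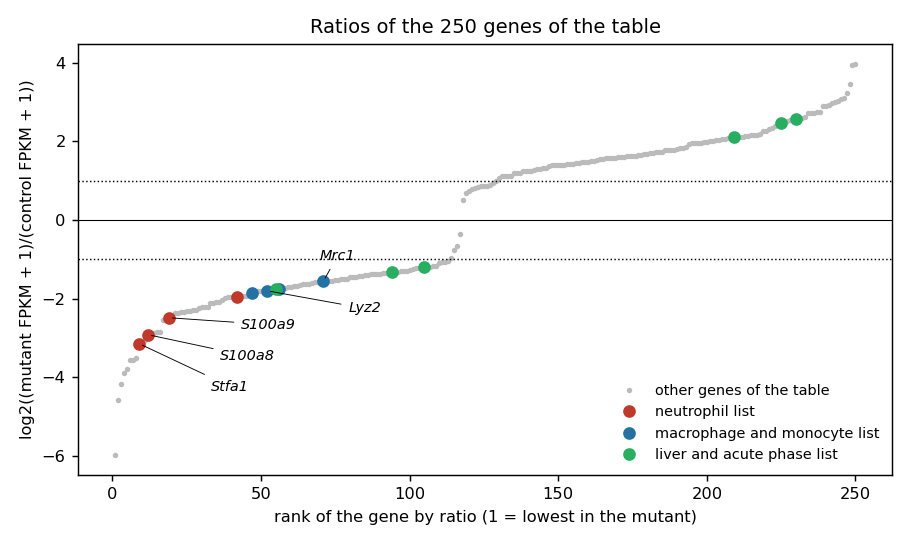
All 250 genes of the table in order of log2((mutant FPKM + 1)/(control FPKM + 1)), with the genes of the neutrophil list in red, the macrophage and monocyte list in blue and the liver and acute phase list in green; dotted lines mark a change of 2-fold. The red and blue points lie below −1, from −3.15 for Stfa1 to −1.56 for Mrc1, and the green points lie on both sides.

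The q-value in the authors' deposited table was 0.00101 for Stfa1, 0.00207 for S100a8, 0.00354 for Mrc1, 0.00795 for S100a9 and 0.0468 for Lyz2. The highest q of any gene in that table was 0.0496, so Lyz2 lies just inside the limit of being listed. These q-values compare 1 library with 1 library and hold no variation between embryos. The program behind them is uncertain, because the labels name another one than Cuffdiff, whose columns the table has. Mrc1 had the smallest fold change of the 5 and the third lowest q.

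The genes differ widely in length, and so in the number of fragments behind an equal FPKM. The annotated transcript is 0.392 kb for S100a8, 0.439 for Stfa1, 0.519 for S100a9, 1.31 for Lyz2 and 5.35 for Mrc1. FPKM multiplied by this length gives the fragments per 1000000 mapped fragments, with no correction for fragment size. That quantity was 73.1 for Mrc1 in control and 21.3 in mutant RNA, the highest of the 5 in both libraries although its FPKM was the lowest in the control. It was 36.9 and 9.65 for Lyz2, 31.9 and 5.26 for S100a9, and 25.5 and 3.03 for S100a8. Stfa1 rested on the fewest fragments, 13.6 fragments per 1000000 mapped fragments for the control and 1.14 for the mutant.

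**Figure D3:**
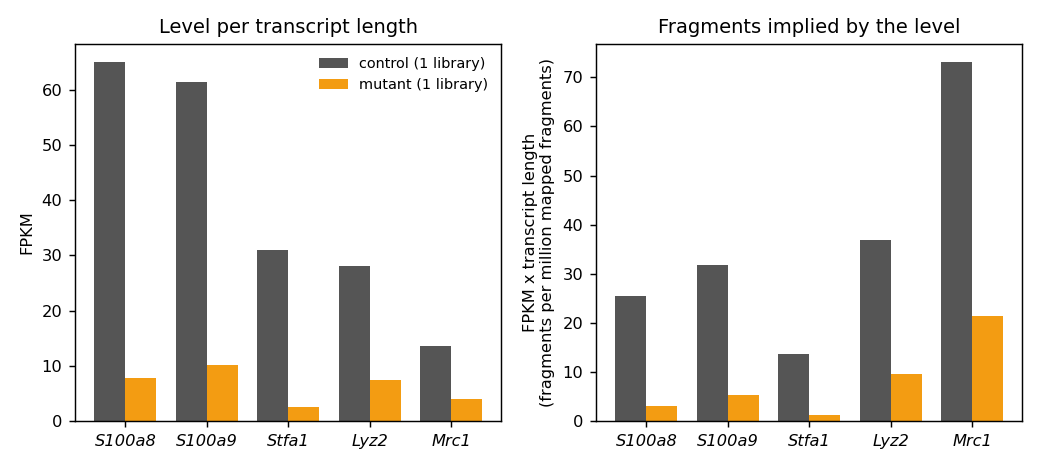
Bars give each gene's FPKM (left) and its FPKM multiplied by the annotated transcript length, in fragments per 1000000 mapped fragments (right), in the control library (grey) and the mutant library (orange), 1 library each. S100a8 is highest on the left in the control at 65.1 FPKM, whereas Mrc1 is highest on the right at 73.1.

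Stfa1 and Lyz2 have near-identical copies in the same stretch of their chromosomes, and the authors' alignment allowed reads with several hits, so their values are uncertain. Of the stretches of 50 bases in the annotated Stfa1 transcript, 37.7% also occur in BC100530 or Gm1975. For Lyz2, 15.4% occur in Lyz1, the lysozyme of intestinal Paneth cells, which lies 5.47 kb away. The coding sequences of Stfa1 and BC100530 differ at 6 of 294 bases and those of Lyz2 and Lyz1 at 22 of 447. The first 90 coding bases of each pair, from the GENCODE transcripts of mm9, are shown with the differing bases in capitals, 3 for the first pair and 7 for the second.
Stfa1: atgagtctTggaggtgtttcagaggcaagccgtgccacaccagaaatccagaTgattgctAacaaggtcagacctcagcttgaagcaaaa
BC100530: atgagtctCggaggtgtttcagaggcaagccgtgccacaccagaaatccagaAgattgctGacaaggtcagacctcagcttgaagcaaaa
Lyz2: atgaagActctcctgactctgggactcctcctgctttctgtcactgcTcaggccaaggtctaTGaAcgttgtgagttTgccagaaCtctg
Lyz1: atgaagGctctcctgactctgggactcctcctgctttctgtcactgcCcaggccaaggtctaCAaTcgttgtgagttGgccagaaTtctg

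None of the copies has a row in the table, and the sources used here do not say how reads were divided between them. S100a8, S100a9 and Mrc1 share no stretch of 50 bases with another coding gene. S100a8 and S100a9 belong to one family, and 170 of their 270 aligned coding bases are identical.

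The neighbours of these genes were looked up in the same table. Of the 11 S100 genes from S100a1 to S100a9 on chromosome 3, the table holds 3, S100a8, S100a9 and S100a6. S100a6, a calcium-binding protein of many cell types including fibroblasts, had a control value of 23.4 FPKM and a mutant value of 3.45, a log2 ratio of −2.46, and lies 54.7 kb before S100a8. Of the 12 protein-coding genes from Csta to Stfa3 on chromosome 16, the table holds Stfa1 alone. Of the lysozyme list of 8 annotated genes it holds Lyz2 alone, and of the 4 genes of the mannose receptor family Mrc1 alone. Of 19 annotated stefins and cystatins it holds Stfa1. Of all genes tested, 1.67% were called. S100a8, S100a9, Stfa1, Lyz2 and Mrc1 were chosen for having a row, so nothing is read from these family counts.

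**Figure D4:**
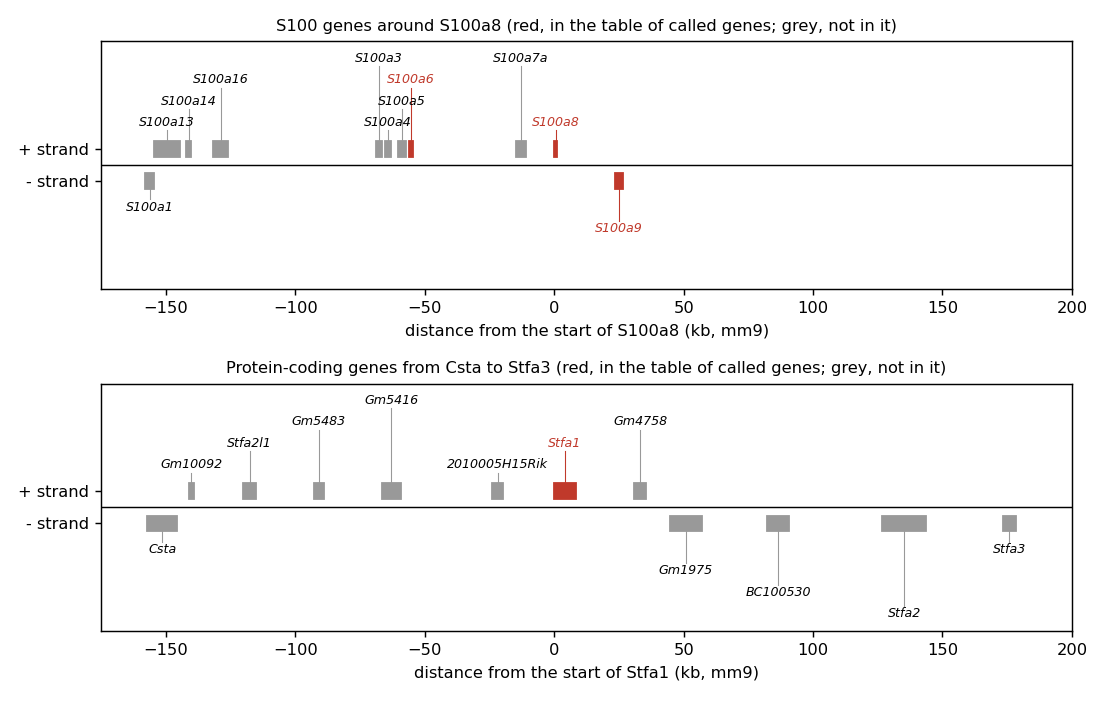
Maps of the S100 genes around S100a8 (top) and of the protein-coding genes from Csta to Stfa3 (bottom), in kb from the start of S100a8 and of Stfa1 on mm9, with genes above the line on the plus strand and below it on the minus strand. Red marks genes in the table of called genes, 3 of 11 at the top and 1 of 12 at the bottom, and grey marks the others. S100a8, S100a9 and Stfa1 were chosen for having a row, and 1.67% of all genes tested were called.

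Lists of leukocyte genes were drawn up with the earlier results known. Of their 93 annotated members, 8, or 8.60%, are in the table, beside 1.67% of all genes tested, in either direction. All 8 were called lower, beside 113 of the 250 table genes, or 45.2%. Of these 8, 5 are the genes chosen for having a row, and of the other 88 annotated members the table holds 3, or 3.41%. Nothing is read from these shares, since the lists were drawn up with the results known. The neutrophil list had 4 of 33 genes in the table and the macrophage and monocyte list 4 of 35. The 3 genes beyond those already described had a lower FPKM than any of the 5 in both libraries. Ngp, a granule protein of developing neutrophils, had 9.66 FPKM in control and 1.74 in mutant RNA, a log2 ratio of −1.96. F13a1, the coagulation factor XIII subunit that macrophages and platelets make, had 8.63 and 1.86, a ratio of −1.75. Ms4a7, a membrane protein of macrophages, had 3.79 and 0.314, a ratio of −1.87.

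With these genes added, the log2 ratios of the neutrophil list, up to −1.96, still lay below those of the macrophage and monocyte list, from −1.87. By the plain ratio the lists overlapped. Ngp was 5.55-fold and F13a1 4.64-fold lower, and Ms4a7 was 12.1-fold lower, more than Stfa1. Its mutant value is low, at 0.494 fragments per 1000000 mapped fragments. The authors' deposited table gives a q of 0.0401 for Ngp, 0.0162 for F13a1 and 0.0157 for Ms4a7.

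Most leukocyte genes have no row, and neither do most genes, since 1.67% of all genes tested were called. Nothing is therefore read from the absences that follow. The list of genes shared by all leukocytes, such as Ptprc, which encodes CD45, has 0 of 25 in the table. Csf1r, the growth factor receptor that macrophages depend on, has no row, nor do the neutrophil granule enzyme genes Mpo and Elane. Also without a row are all 16 genes for receptors and partners of the proteins described here, including Tlr4 and Ager, which bind calprotectin, and all 19 myeloid growth factors and chemokines, including Csf1 and Csf3. A gene without a row was either not tested or not called, and its level was not analysed here.

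Markers of other blood and vessel cells gave no rows, which in lists of this size is near the 1.67% of all tested genes that were called. The table holds 0 of 20 erythroid, 0 of 12 megakaryocyte and platelet, 0 of 22 mast cell and lymphoid and 0 of 21 endothelial genes.

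Some markers of liver and of the spleen primordium have a row, while 30 of the liver and 7 of the spleen list have none. These lists too were drawn up with the results known, so nothing is read from their shares. Of 36 annotated liver and acute phase genes 6 have a row, or 16.7%, beside 1.67% of all genes tested, with a summed level of 298 FPKM in control RNA and 131 in mutant RNA. Of these, Alb, the serum albumin gene, had 54.9 FPKM in control and 15.6 in mutant RNA, and Apoe and Trf were also lower. Saa1 and Saa2, the acute phase serum amyloid genes, were higher in the mutant, at 0.467 against 5.29 FPKM and 0.199 against 6.11, and so was Tdo2. Of the stretches of 50 bases in Saa1, 9.17% also occur in Saa2. Of 9 annotated spleen primordium genes 2 have a row, or 22.2%, Tlx1 and Wt1, with a sum of 49.6 FPKM in control RNA and 5.14 in mutant RNA. The part of liver or spleen tissue in the levels of the myeloid genes was not tested.

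The table gene nearest to each of the 5 was found by its distance in log2(FPKM + 1) over the 2 libraries, leaving out the 5 genes and predicted genes. For Mrc1 it was Nfam1, an immune receptor that signals through an ITAM motif, with 12.98 FPKM in control and 3.82 in mutant RNA and a distance of 0.0845. For Lyz2 it was Nrk, a protein kinase gene, at 25.9 and 7.28 FPKM and a distance of 0.111. For Stfa1 it was Ctrb1, which encodes the digestive enzyme chymotrypsinogen, at 0.446. For S100a8 and S100a9 it was Rmrp, a non-coding RNA of the RNase MRP complex, at 56.4 and 6.83 FPKM and distances of 0.258 and 0.522. Over 2 libraries such a distance says only that the levels are close.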

How the data were processed

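The genes, gene lists and motifs were chosen with earlier results of these data known. Per the labels, reads were aligned with TopHat 2.0.4 to mm9, allowing 4 mismatches and 10 hits. Per the submitters' processing notes, CASAVA 1.8.2, Cufflinks and DESeq were also used. The authors deposited FPKM per library. Their scaling between libraries, the annotation and the use of strand are not stated in the labels or the file. The authors also deposited a log2 fold change (the FPKM ratio without a pseudocount), a test statistic, which is a score, with a p-value and q-value. Per the labels the calls came from DESeq, but the columns are Cuffdiff's, so the program behind p and q, and the number tested taken from them, is uncertain.

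Differences are given as log2((mutant FPKM + 1)/(control FPKM + 1)), and a change of 2-fold with 1 FPKM in at least 1 library was called. No test was run. The number of genes tested was taken as the median of q times rank over p, for 96 genes with p above 1e-04. Named genes are the 5 genes, every listed gene in the table and the nearest gene of each. Starts are 1-based. Annotation is GENCODE vM1 (NCBIM37, the same build as mm9). Python 3.11.15, pandas 2.3.3, numpy 2.4.6 and Biopython 1.88 were used, and calls were tested on simulated data.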

Additional observations from a re-analysis of the deposited data

How the results depend on the processing

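All 5 genes were called lower with a pseudocount of 5 FPKM. The 5 were also called with 3 other FPKM minimums, but these could not end the call. Dropping the minimum only loosens the rule. The lowest control level, 13.7 FPKM for Mrc1, passes 5 FPKM in at least 1 library. The lowest mutant level, 2.61 FPKM for Stfa1, passes 1 FPKM in both libraries. The 5 genes were called with centring, a pseudocount of 0.1 and the authors' deposited fold change too. These settings only enlarge a lower ratio and so could not end the call either. At 4-fold, 3 were, without Lyz2 and Mrc1, and with the authors' q at most 0.01, 4 were, without Lyz2. The log2 ratios of S100a8, S100a9, Stfa1, Lyz2 and Mrc1 were −3.06, −2.59, −3.52, −1.92 and −1.75 with a pseudocount of 0.1 (median −2.59). With a pseudocount of 5 they were −2.46, −2.13, −2.24, −1.42 and −1.06 (median −2.13), so that S100a8 and not Stfa1 was lowest. Centred on 1.11, the median of table genes past the FPKM minimum, they were −4.03, −3.60, −4.26, −2.91 and −2.67 (median −3.60). The authors' deposited log2 fold changes were −3.07, −2.60, −3.57, −1.93 and −1.78 (median −2.60). Of the whole table, 113 genes were called lower and 121 higher. A 4-fold limit gave 37 lower and 50 higher, and a pseudocount of 5 gave 75 lower and 69 higher. There were 38 higher and 114 lower after centring, 70 higher where both libraries had to reach 1 FPKM, and 66 lower where q was limited to 0.01. These moves follow from how each alternative is built. No paired analysis was possible because each group has 1 library, and no library could be left out. Depth per library is unknown, so no counting interval is given.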

Other observations

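The 3 genes given here are on none of the lists and were chosen after their values were seen. Macrophages express them along with other cell types. All 3 were called lower in the mutant, beside 113 of the 250 table genes, or 45.2%. Nothing is read from their direction, since they were chosen with it known. Slc40a1, the iron exporter ferroportin, which macrophages use to recycle iron, had 65.3 FPKM in control and 15.97 in mutant RNA. Sepp1, the selenium carrier selenoprotein P, which liver secretes, had 122 and 35.1 FPKM. Dab2, an endocytic adaptor of macrophages and of several epithelia, had 38.4 and 12.8 FPKM.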
